A study of Mus musculus with 9 samples.

Results

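The comparison described here set the hippocampus of mice that inhaled 10% linalyl acetate (LA) against that of mice that inhaled the vehicle. Its members were the arrays whose sample titles named either exposure, 3 of 10% LA and 3 of vehicle, which made 6 of the 9 samples of the series. The other 3 arrays came from mice given 1% LA. All groups were male ICR mice, an outbred strain, 8 weeks old and housed singly, and the series' protocols say that they were allocated at random. Exposure was by whole-body inhalation from a nebulising aroma diffuser for 7 days, and the tail suspension test, which scores immobility under an inescapable hold, came after 30 min of inhalation. The vehicle was 1% Tween 80, a detergent that disperses oils in water. Whether the LA liquids also held Tween 80, and in what the percentages were taken, is not given here. Hippocampal RNA was hybridised to a mouse whole-transcript array that gives 1 log2 signal for each transcript cluster, a set of probes that covers 1 gene. Nothing in the sources used here states that the 3 arrays of a group came from separate animals, so each p-value measures the spread between these arrays, which may be technical.

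The labels disagree among themselves. The descriptions of the 3 vehicle samples tell of oral saline and an injection, and that of vehicle replicate 3 names lipopolysaccharide (LPS), a bacterial endotoxin, as the injected agent. The 10% LA samples have no description, and the series' design text names human SH-SY5Y cells and the olive compound oleacein. Titles, source names and the growth protocol agree on the inhalation groups, which were used. Of 30 endotoxin-responsive genes on the array, 10 passed the low-signal filter, and Il1b, Tnf, Il6, Lcn2 and Ccl2 were among the 20 that did not. Over all 30, vehicle replicate 3 differed from the mean of the other vehicle arrays by a median log2 of -0.07 in the signal table and 0.041 in the series matrix, a median that rests mostly on genes below the filter. Single genes differed more: Lbp by -1.93 and 2.52 in that order, Serpina3n by -1.71 and 0.45, and Il1r1 by -0.53 and 0.82. Ptgs2 ran the other way, at 0.155 and -0.82. Of the 30, 0 lay over 1 log2 unit higher and 2 lower in the signal table, and 1 and 0 in the series matrix. The 10% LA arrays varied for Lbp too, at 10.27, 6.24 and 8.44.

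Linalyl acetate is a fragrant monoterpene ester of lavender and bergamot oils, and carboxylesterases hydrolyse it to linalool. Immediate early genes are transcribed in neurons within minutes of synaptic activity, largely through the transcription factors CREB and SRF, and need no new protein for their induction. Their products are other transcription factors, brakes on kinase signalling, and proteins such as Arc that remodel excitatory synapses. Whole-tissue RNA mixes neurons, glia, vessels and any adjoining choroid plexus, so a lower signal can come from fewer cells of a type or from less RNA in each cell, which cannot be told apart here.

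The deposit has 2 tables that hold the same arrays on a log2 scale, a signal table and a series matrix, and they differ in vehicle replicate 3. For each of the other 5 arrays the tables correlated at r = 0.999 across clusters, with at most 1 cluster over 1 log2 unit apart. For vehicle replicate 3 the correlation was 0.981 and 1778 clusters lay over 1 unit apart. Which column belongs to that sample is not given, so results are given from both tables, with signal table values unless stated otherwise. In the signal table that array correlated at 0.962 to 0.981 with the 10% LA arrays, and in the series matrix at 0.984 to 0.988. In the signal table vehicle replicate 1 stood apart from its group too. It correlated at 0.982 to 0.988 with the 10% LA arrays and at 0.974 to 0.978 with the other vehicle arrays. In the series matrix it reached 0.983 with vehicle replicate 3. There vehicle replicate 2 stood apart, at 0.977 to 0.978 with the other vehicle arrays. Without vehicle replicate 1 the signal table had 533 clusters past the adjusted p described below. The vehicle side then rested on vehicle replicate 2 and on vehicle replicate 3, the column that differs between the tables. Arrays were left out in the signal table alone. The median of the immediate early factors was then -0.79, that of the microglial markers 0.50 and that of the oligodendrocyte precursor markers 0.68. The median log2 signal was 6.84 to 6.88 in the 6 arrays of the signal table. The median SD of a cluster was 0.26 among vehicle arrays and 0.22 among 10% LA arrays. Hippocampal markers were present in every array: the CA1 and cortical neuron gene Neurod6 lay between 13.75 and 14.89, the granule cell gene Prox1 between 9.63 and 11.23, the CA1 genes Wfs1 between 11.14 and 12.48 and Spink8 between 8.95 and 10.16, and the CA2 gene Rgs14 between 9.11 and 9.50.

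At 10% LA a share of the immediate early genes, among them Arc, Junb and Nr4a1, had lower signals than in vehicle, and the clock output gene Dbp and the metallothionein gene Mt2 stood higher. No single gene reached the threshold set for a change, an adjusted p under 0.05 by limma's moderated test with Benjamini-Hochberg adjustment over 13323 clusters. That count was 0 in both tables, with smallest adjusted p-values of 0.191 and 0.163. At an unadjusted p under 0.05 there were 1853 clusters (13.9%), 905 higher (6.79%) and 948 lower (7.12%). With the series matrix there were 760 (5.7%), 321 higher (2.41%) and 439 lower (3.3%). Of the 1853, 548 also had an unadjusted p under 0.05 with the same direction in the series matrix. The direction was opposite there, whatever the p, in 1 of the 1853, and the median ratio of the series matrix difference to the signal table difference was 0.665. Among the arrays compared, the tables differ mainly in vehicle replicate 3, so this agreement was largely fixed beforehand. A lack of overlap in both tables is likewise no repeated support. When a linear fold above 2 was also asked for, as the submitters did, 146 clusters (1.1%) were left, 103 higher (0.773%) and 43 lower (0.323%). With the series matrix 24 (0.18%) were, 10 higher (0.0751%) and 14 lower (0.105%), and 20 were shared. Values of the 3 and 3 arrays did not overlap in 1948 clusters (14.6%), 900 higher (6.76%) and 1048 lower (7.87%). With the series matrix they did not in 1385 (10.4%), 624 higher (4.68%) and 761 lower (5.71%). Clusters that met both the unadjusted p and the lack of overlap in both tables numbered 157 higher (1.18%) and 218 lower (1.64%). The median log2 difference over all clusters was -0.017, with 5th and 95th percentiles of -0.57 and 0.61. Counts and medians of gene lists below are to be read against these shares. Without any group difference, an unadjusted p under 0.05 is met by about the share its threshold names, near the 5.7% of the series matrix. For arrays in random order, the share without overlap would likewise be close to the 10.4% of the series matrix. The 13.9% and 14.6% of the signal table lie above these levels. Neither an unadjusted p under 0.05 nor a lack of overlap is by itself the mark of a change in a single gene. With vehicle replicate 3 left out, 912 clusters (6.85%) had an unadjusted p under 0.05, 434 higher (3.26%) and 478 lower (3.59%).

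Among the immediate early transcription factors, 15 of 20 on the array passed the filter, and Fos, Npas4, Ier2, Klf4 and Maff were too dim. Of the 15, 10 were lower and 0 higher at an unadjusted p under 0.05, and their median log2 difference was -0.74. With the series matrix 6 were lower and 0 higher, with a median of -0.44. Without vehicle replicate 3 the count was 8 lower, with a median of -0.56. The mean log2 level of the 15 was 9.67, 9.54 and 9.91 in the vehicle arrays and 8.94, 9.21 and 8.89 in the 10% LA arrays, with 9.40 for vehicle replicate 3 in the series matrix. By this mean every vehicle array lay above every 10% LA array, in both tables. Summed on the linear scale the groups overlapped, with 30863 for vehicle replicate 2 and 32867 for 10% LA replicate 3.

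Junb encodes an AP-1 subunit. It read 8.49, 8.19 and 8.70 in the vehicle arrays and 6.97, 7.78 and 6.77 after 10% LA, with 8.20 for vehicle replicate 3 in the series matrix. The groups did not overlap, and the second 10% LA array came closest to vehicle. The log2 difference was -1.29 (SE 0.26) with a limma adjusted p of 0.312, and -1.05 with the series matrix. Nr4a1 encodes an orphan nuclear receptor induced by depolarisation. Its values were 9.99, 9.17 and 9.67 in vehicle and 8.26, 8.90 and 7.98 after 10% LA, with 9.69 in the series matrix for vehicle replicate 3. Again no array crossed between the groups, and the second 10% LA array was the highest of its group. This gave a log2 difference of -1.23 (SE 0.28), and -1.20 with the series matrix. Nr4a2, its paralog and a factor of dopamine neurons and deep cortical cells, read 13.52, 12.28 and 12.45 in vehicle and 11.35, 11.44 and 12.03 after 10% LA. Vehicle replicate 1 stood well above the rest, and the second vehicle array and the third 10% LA array came closest without crossing. The difference on the log2 scale was -1.14 (SE 0.38), and -1.19 with the series matrix. Klf10, a zinc finger repressor induced by TGF-beta, read 7.87, 7.85 and 8.27 in vehicle and 7.12, 7.18 and 7.00 after 10% LA. Both groups were tight, and Klf10 had the smallest p of the list, 0.00028 by limma (adjusted p = 0.312), for a log2 difference of -0.90 (SE 0.17), and -0.86 with the series matrix.

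Further members had differences of similar or smaller size, not all with an unadjusted p under 0.05. Jun, the core AP-1 subunit, differed by -0.68 (SE 0.23) and the stress-induced factor Atf3 by -0.70 (SE 0.20), and neither overlapped between the groups in either table. For the zinc finger factors of the Egr family the tables diverged. Egr1 differed by -1.30 and -0.67 in the signal table and the series matrix, Egr2 by -0.74 and -0.33 and Egr3 by -0.78 and -0.40. Vehicle replicate 3 read 12.15 for Egr1 in the series matrix against 14.05 in the signal table. Ier5, a regulator of heat shock factor, differed by -0.82 and -0.51. The remaining 5, Fosl2, Fosb, Egr4, Nr4a3 and Jund, had an unadjusted p above 0.05 in both tables, and Nr4a3 and Jund had differences of opposite sign in the 2 tables.

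Genes that act downstream of activity, as synaptic effectors or as feedback on MAP kinase signalling, were lower in part. Of 24 on the array 22 passed the filter, 8 were lower and 0 higher, and the median was -0.25. Differences lay above 0 for 6 of them, and without vehicle replicate 3 the count was 5 lower. With the series matrix 7 were lower and 1 higher, with a median of -0.19. Arc encodes the capsid-like protein that removes AMPA receptors from synapses. It read 9.18, 8.38 and 8.80 in the vehicle arrays and 7.23, 7.28 and 6.99 after 10% LA, with 8.65 for vehicle replicate 3 in the series matrix. The lowest vehicle array was over 1 log2 unit above the highest 10% LA array. On the log2 scale the groups differed by -1.62 (SE 0.23), the limma adjusted p was 0.191, and the series matrix gave -1.56. Dusp1, the phosphatase that switches off p38, JNK and ERK, read 12.25, 9.70 and 10.41 in vehicle and 9.01, 9.08 and 8.90 after 10% LA. The 10% LA arrays lay close together while the vehicle arrays spread widely, with the second the lowest and still above every 10% LA array. The log2 difference was -1.79 (SE 0.51), and -2.06 with the series matrix, where vehicle replicate 3 read 11.48. Cyr61, a matricellular integrin ligand and a serum response target, read 8.32, 7.46 and 8.17 in vehicle and 6.82, 6.67 and 6.68 after 10% LA. All 10% LA arrays lay below all vehicle arrays, and the log2 difference was -1.26 (SE 0.22), or -1.04 with the series matrix.

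Further members with smaller differences did not overlap between the groups in either table. These were Sik1, a kinase that curbs CREB coactivators, at -0.65 (SE 0.20), the demethylation-linked stress gene Gadd45b at -0.52 (SE 0.17) and the nuclear phosphatase gene Dusp4 at -0.52 (SE 0.23). Gadd45g had a log2 difference of -0.43 (SE 0.18). The members with an unadjusted p above 0.05 in both tables included Ptgs2, Nptx2, Bdnf, Plk2, Rgs2, Sgk1 and Inhba.

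**Figure D1:**
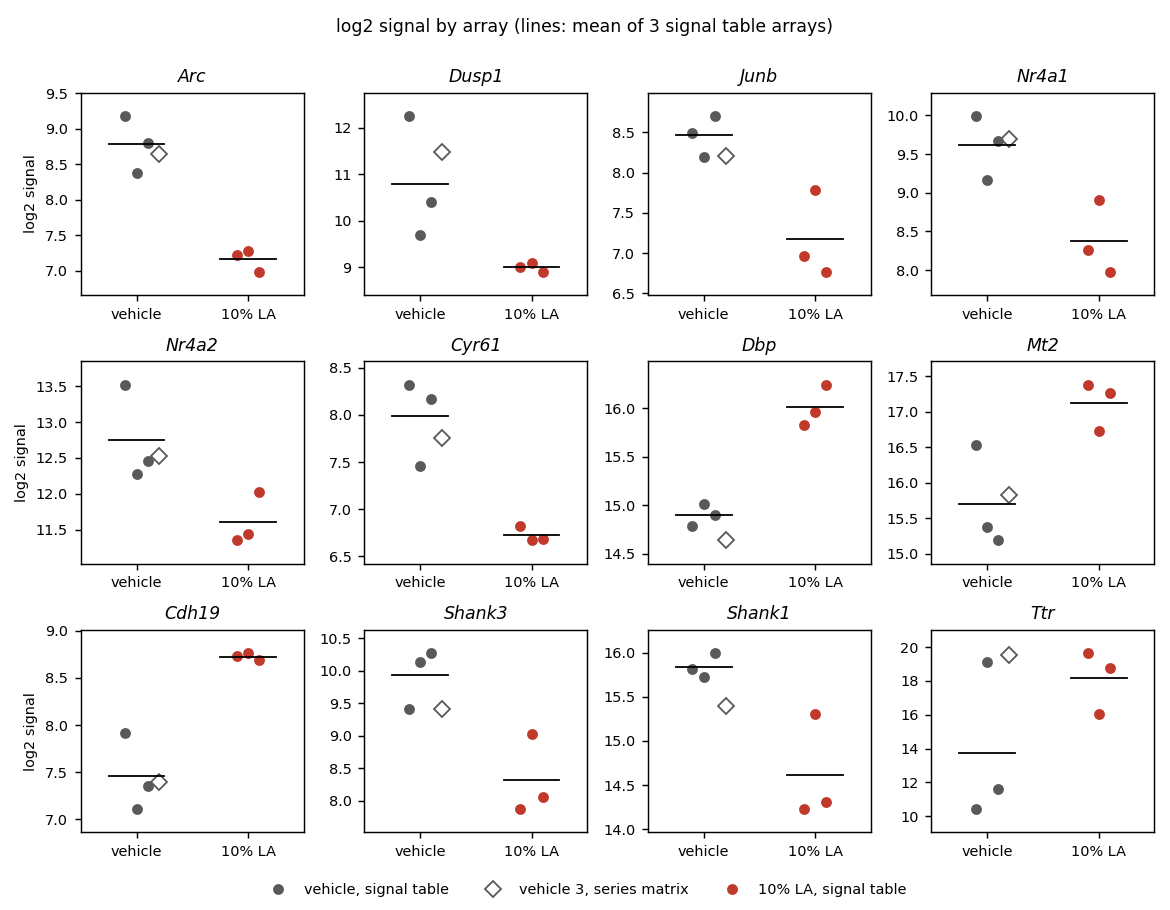
Each panel plots the log2 signal of 1 gene in the 3 vehicle arrays (grey points) and the 3 arrays of 10% LA (red points), in replicate order from left to right, with lines at the group means and an open diamond for vehicle replicate 3 as the series matrix gives it. Arc, Dusp1, Junb, Nr4a1, Nr4a2, Cyr61, Shank3 and Shank1 lie lower after 10% LA and Dbp, Mt2 and Cdh19 higher, with no overlap between groups, while Ttr overlaps.

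Promoter sequence was examined for genes named by rule because CREB acts through the cAMP response element, TGACGTCA, and its shorter core, TGACG. The 250 bases before the annotated start were taken from RefSeq on GRCm38.p6, searched on both strands, and 20 of the 30 genes named by rule had an entry. Of the 32851 promoters listed there, 1.55% hold the full element and 17.8% a core. The genome build of the deposited files is not given, so these positions belong to the reference alone. The windows of 4 genes described above are shown, those of the 3 with most cores among the lower genes and of Junb, 5′ to 3′ on the gene's strand, with full elements and cores in capitals. Dusp1 lies at chr17:26508473-26508722 (minus strand), Nr4a1 at chr15:101266596-101266845 (plus strand), Nr4a2 at chr2:57124004-57124253 (minus strand) and Junb at chr8:84978749-84978998 (minus strand), each given as the window printed.
Dusp1: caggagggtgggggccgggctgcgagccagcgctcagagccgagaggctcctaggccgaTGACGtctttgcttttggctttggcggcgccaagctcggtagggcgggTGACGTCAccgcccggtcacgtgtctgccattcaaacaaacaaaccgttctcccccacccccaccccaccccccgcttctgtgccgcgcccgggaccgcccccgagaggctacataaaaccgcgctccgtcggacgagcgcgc
Nr4a1: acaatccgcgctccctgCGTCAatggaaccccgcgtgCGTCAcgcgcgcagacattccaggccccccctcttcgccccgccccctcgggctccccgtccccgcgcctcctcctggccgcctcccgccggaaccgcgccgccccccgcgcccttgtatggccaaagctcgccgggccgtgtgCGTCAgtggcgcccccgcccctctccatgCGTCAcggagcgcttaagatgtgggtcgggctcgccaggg
Nr4a2: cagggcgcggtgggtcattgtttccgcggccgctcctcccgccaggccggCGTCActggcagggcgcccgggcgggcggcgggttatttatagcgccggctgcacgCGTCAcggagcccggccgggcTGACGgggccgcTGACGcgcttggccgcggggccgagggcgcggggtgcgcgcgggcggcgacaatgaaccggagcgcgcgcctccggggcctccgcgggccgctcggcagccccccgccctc
Junb: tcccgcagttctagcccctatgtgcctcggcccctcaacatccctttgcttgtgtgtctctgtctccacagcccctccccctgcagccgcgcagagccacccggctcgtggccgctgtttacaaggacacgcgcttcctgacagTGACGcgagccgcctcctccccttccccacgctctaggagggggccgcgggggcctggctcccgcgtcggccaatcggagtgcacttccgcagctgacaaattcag

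The Dusp1 window holds 1 full element, which begins 143 bases before the start and contains 2 overlapping cores, 1 on each strand, and 1 further core. Nr4a1 and Nr4a2 hold 4 cores each and Junb 1. Cyr61 holds 1 as well, and among the higher genes Ankrd49 holds 2 and Hmgcs1 1. The lower genes Shank3, Smpd4 and Cited2 hold 0, as do the higher genes Mt2, Dbp, Dbpht2, Ehd3, Tceanc, Napepld and Nvl. No entry was found for the lower genes Arc, Klf10, Shank1 and Tm6sf2 or the higher genes Cdh19, Pcdh11x and Qpct. The windows were also searched for the E-box, CACGTG, and the D-box, TTATGTAA or TTACGTAA, which 6.02% and 0.931% of promoters hold. Dusp1 and Cited2 held 1 E-box each, and Dbp held 0 of either motif. A match describes the letters of the window and says nothing of binding in these samples.

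The clock output factors stood higher for Dbp alone in both tables. Dbp is a PAR-domain activator whose transcription peaks once a day under CLOCK and BMAL1, and Nfil3 represses through the same D-box sites. Of 7 output factors kept, 2 were higher and 1 lower, and of these Rorb, a retinoid-related receptor gene, differed by 0.79 and 0.59 in the 2 tables. Dbp read 14.79, 15.01 and 14.90 in vehicle and 15.83, 15.96 and 16.24 after 10% LA, with 14.64 for vehicle replicate 3 in the series matrix. The vehicle arrays lay close together, and every 10% LA array was higher than each of them. This gave a log2 difference of 1.11 (SE 0.17) with a limma adjusted p of 0.191, and 1.22 with the series matrix. Nfil3 differed by -0.52 (SE 0.19), and -0.54 with the series matrix, also without overlap. Of the 13 core loop genes, 1 was higher and 2 were lower. Clock, which encodes the histone acetyltransferase partner of BMAL1, differed by 0.65 and 0.40 in the 2 tables, the period gene Per1 by -0.60 and -0.46 and the kinase gene Csnk1e by -0.66 and -0.31. Arntl, which encodes BMAL1, differed by -0.49 and -0.64 and did not overlap between groups in either table. The hour at which tissue was taken is not given. Dbpht2, annotated as a DNA-binding protein gene, read 10.73, 9.61 and 9.64 in vehicle and 11.46, 10.97 and 11.53 after 10% LA. Its groups did not overlap, and its log2 difference was 1.33 (SE 0.33), or 0.97 with the series matrix.

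Mt2 encodes a small cysteine-rich protein that binds zinc and copper and is induced by metals, glucocorticoids and oxidative stress, chiefly in astrocytes in brain. It read 16.53, 15.38 and 15.19 in vehicle and 17.38, 16.73 and 17.26 after 10% LA, with 15.83 for vehicle replicate 3 in the series matrix. Vehicle replicate 1 stood above the other vehicle arrays and just below the lowest 10% LA array. The difference on the log2 scale was 1.42 (SE 0.38) with a limma adjusted p of 0.312, and 1.24 with the series matrix. Of 15 genes of metal handling, 4 were higher and 0 lower, with medians of 0.15 and 0.28 in the 2 tables. Tfrc, the transferrin receptor gene, differed by 0.42 and 0.61 without overlap, the ferritin light chain gene Ftl1 by 0.48 and 0.33 and the transferrin gene Trf, made by oligodendrocytes and choroid plexus, by 1.13 and 0.26. The metal-responsive factor MTF1 reads cores of the form TGCGCNC or TGCACNC, which 21.4% of promoters hold on either strand. The window of Mt2, chr8:94172368-94172617 on the plus strand, holds 3 of them, shown here in capitals beside its expression values. The window of Dbp holds 4, those of the lower genes Nr4a2 and Cited2 2 each, and those of Nr4a1, Junb and Napepld 1 each.
Mt2: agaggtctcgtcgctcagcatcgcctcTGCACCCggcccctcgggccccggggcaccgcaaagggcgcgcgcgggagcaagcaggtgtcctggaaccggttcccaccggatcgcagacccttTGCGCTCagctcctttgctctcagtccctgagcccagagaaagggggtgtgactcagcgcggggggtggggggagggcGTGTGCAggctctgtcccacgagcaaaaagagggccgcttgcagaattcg

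Stress hormone targets had no common direction. Of 16 glucocorticoid receptor and target genes kept, 1 was higher and 3 were lower, with a median of -0.018. Klf9, a hormone-induced repressor, differed by 0.54 and 0.49 in the 2 tables and Ddit4, an inhibitor of mTORC1, by -0.63 and -0.82. Both did so without overlap, in opposite directions. Nfkbia, the NF-kappa-B inhibitor gene, differed by -0.64 and -0.50. Heat shock proteins and co-chaperones had 4 lower and 0 higher of 18, with medians of -0.14 and -0.16, and 0 in either direction without vehicle replicate 3. The chaperone gene Hsph1 (-0.39 and -0.40), the heat shock factor gene Hsf1 (-0.44 and -0.43) and the HSP90 activator gene Ahsa1 (-0.55 and -0.41) did not overlap in either table, nor did Hspa4l (-0.20 and -0.25) and Hspa8 (0.033 and 0.021). Hspa1a, the inducible HSP70 gene, differed by -0.40 and -0.42.

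Excitatory synapse genes were lower in a minority of cases, led by the Shank scaffolds that tie glutamate receptors to actin in the postsynaptic density. Shank3 read 9.41, 10.13 and 10.27 in vehicle and 7.87, 9.02 and 8.05 after 10% LA, with 9.41 for vehicle replicate 3 in the series matrix. The groups did not overlap, and the second 10% LA array stood well above the other 10% LA arrays. On the log2 scale the groups differed by -1.62 (SE 0.39), and -1.26 with the series matrix. Shank1 read 15.81, 15.72 and 15.99 in vehicle and 14.23, 15.31 and 14.31 after 10% LA, and its second 10% LA array was again the outlying one. Its log2 difference was -1.22 (SE 0.31), and -1.03 with the series matrix, where vehicle replicate 3 (15.39) was just above that 10% LA array. Of 28 scaffold genes kept, 7 were lower and 0 higher in the signal table, 3 and 1 in the series matrix, with medians of -0.19 and -0.14. When vehicle replicate 3 was left out, 3 were lower. Dlgap3, which links Shank proteins to PSD-95, differed by -0.49 and -0.35, Baiap2, an actin regulator, by -0.77 and -0.33 and the exchange factor gene Iqsec2 by -0.62 and -0.53.

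Of 20 ionotropic glutamate receptor subunits, 4 were lower and 0 higher, against 0 in either direction with the series matrix, and the median was -0.018. They were the obligatory NMDA receptor subunit gene Grin1 (-0.46 and -0.34), Grin2c (-0.61 and -0.38) and the kainate receptor subunit genes Grik5 (-0.63 and -0.30) and Grik3 (-0.66 and -0.18), with the series matrix value second. Voltage-gated sodium and calcium channels had 5 of 23 lower and 1 higher, and 2 lower with the series matrix. Cacna1g, the T-type channel gene, differed by -0.99 (SE 0.22), and -0.68 with the series matrix. The auxiliary subunit gene Cacnb1 (-0.66 and -0.52) did not overlap in either table, nor did the axonal sodium channel gene Scn2a1, which ran the other way (0.52 and 0.38). Cacna1a, the P/Q-type channel gene, differed by -0.54 and -0.37 and Scn8a by -0.59 and -0.24. Of 43 potassium and HCN channel genes 4 were higher and 3 lower, with a median of 0.057. Among these, the pacemaker channel gene Hcn2 (-0.57 and -0.66) and the sodium-activated channel gene Kcnt2 (0.54 and 0.57) did not overlap in either table, in opposite directions. Kcnj9, a G-protein-gated channel gene, differed by -0.80 and -0.41 and Kcna4 by 0.62 and 0.40. Release machinery had 1 higher and 4 lower of 29, namely the active zone gene Rims1 (0.65 and 0.51) on the higher side and, on the lower side, the complexin gene Cplx1 (-0.73 and -0.47), the priming factor gene Unc13a (-0.71 and -0.33) and the calcium sensor gene Syt2 (-0.67 and -0.54) among others. Leaving out vehicle replicate 3 made the counts of lower genes 0 for the glutamate receptors, 3 for the sodium and calcium channels and 1 for the release machinery, and for potassium channels it left 2 higher and 1 lower.

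Inhibitory receptor genes were higher in some cases. Of 14 GABA-A receptor subunits and their anchors kept, 4 were higher and 0 lower, 1 and 0 with the series matrix, with medians of 0.21 and 0.18, and 1 was higher once vehicle replicate 3 was left out. Gabra2, the alpha subunit of many axo-axonic synapses, read 13.45, 12.63 and 12.51 in vehicle and 14.08, 13.44 and 14.59 after 10% LA. Vehicle replicate 1 was barely above the second 10% LA array, so the groups overlapped. The log2 difference was 1.17 (SE 0.34), and 0.83 with the series matrix. The beta subunit gene Gabrb1 (0.49 and 0.36) and the gamma subunit gene Gabrg1 (0.77 and 0.41) also overlapped. Slc6a11, the GABA transporter of astrocytes, read 12.13, 12.16 and 11.69 in vehicle and 12.83, 12.41 and 12.81 after 10% LA, which did not overlap. Its log2 difference was 0.69 (SE 0.19), and 0.47 with the series matrix. Kctd16, an auxiliary GABA-B subunit gene, differed by 0.80 and 0.52.

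**Figure D2:**
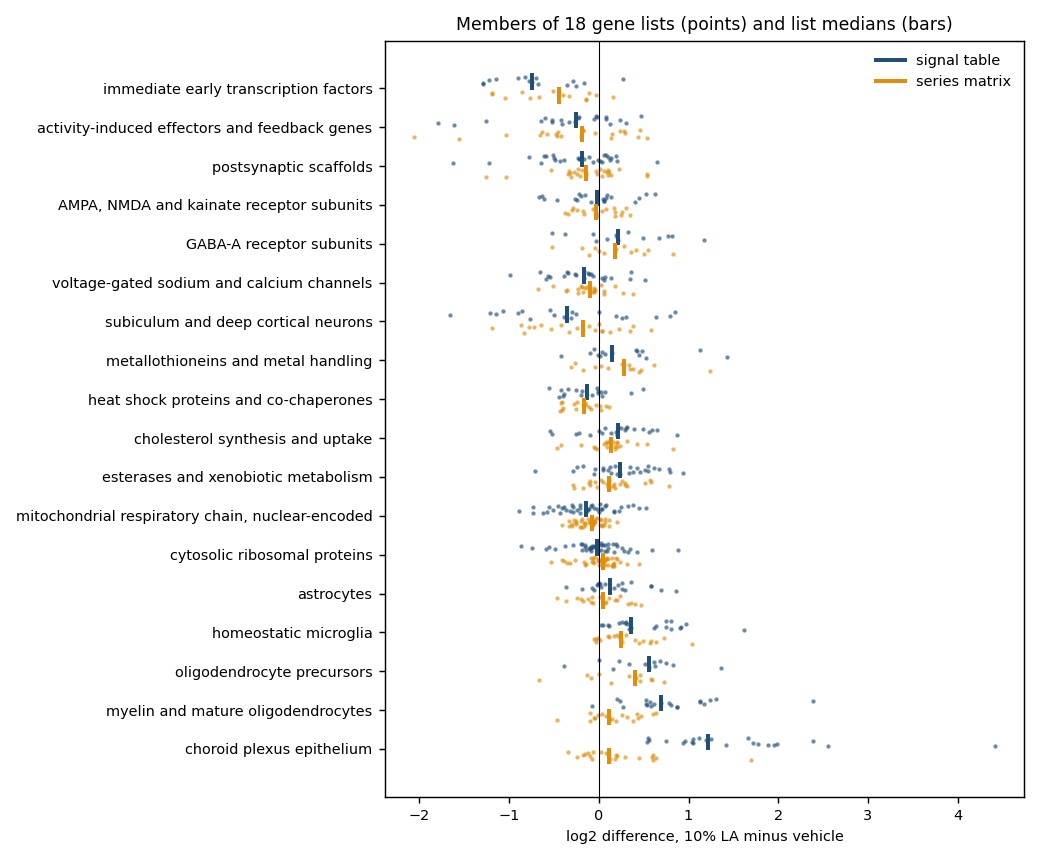
Points are the members of 18 gene lists that passed the filter, placed by log2 difference of 10% LA minus vehicle, with the signal table in blue and the series matrix in orange, and bars are list medians. The immediate early transcription factors have the lowest median in both tables, while the myelin and choroid plexus lists lie right of 0 in the signal table and near 0 in the series matrix.

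Some markers of microglia, the resident macrophages of brain, stood higher. Of 21 kept, 7 were higher and 0 lower in the signal table, 5 and 0 in the series matrix and 6 and 0 without vehicle replicate 3. The medians were 0.35, 0.25 and 0.33 in that order, and 0.19 without 10% LA replicate 1. P2ry12, the ADP receptor that guides microglial processes, read 11.35, 10.14 and 9.66 in vehicle and 12.73, 11.35 and 11.94 after 10% LA. Vehicle replicate 1 equalled the second 10% LA array, and the first 10% LA array was the highest of all. This gave a log2 difference of 1.62 (SE 0.44), and 1.04 with the series matrix. P2ry13, a related receptor, differed by 0.80 and 0.57 and was the one named marker with no overlap in either table. The growth factor receptor gene Csf1r differed by 0.91 and 0.64 and the secreted protein gene Olfml3 by 0.92 and 0.58. As a list, the mean log2 level was 8.17, 7.87 and 7.62 in vehicle and 8.90, 8.02 and 8.34 after 10% LA, with 8.29 for vehicle replicate 3 in the series matrix. These levels overlapped between the groups, since the second 10% LA array lay below vehicle replicate 1.

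Some oligodendrocyte precursor markers were higher in both tables. Of 13 kept, 8 were higher and 0 lower in the signal table and 3 higher and 1 lower in the series matrix, with medians of 0.56 and 0.40. With vehicle replicate 3 left out, 2 were higher and 1 lower. The list's mean log2 level was 9.29, 9.13 and 8.86 in vehicle and 9.78, 9.38 and 9.57 after 10% LA. These levels did not overlap, but vehicle replicate 3 read 9.56 in the series matrix, above the second 10% LA array. Olig1, a lineage factor of these cells, read 8.96, 8.31 and 7.36 in vehicle and 9.67, 9.69 and 9.35 after 10% LA, with 9.09 for vehicle replicate 3 in the series matrix. The groups did not overlap, while the vehicle arrays spread widely. The difference on the log2 scale was 1.36 (SE 0.33), and 0.73 with the series matrix. Vcan, the proteoglycan versican, differed by 0.62 and 0.59 without overlap in either table. Enpp6, a choline phosphodiesterase of newly forming oligodendrocytes, differed by 0.75 and 0.40 and the receptor phosphatase gene Ptprz1 by 0.68 and 0.46.

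Markers of mature oligodendrocytes were higher with the signal table alone. There 9 of 21 were higher and 0 lower, with a median of 0.70. With the series matrix 0 were, with a median of 0.11. When vehicle replicate 3 was left out, 5 were higher and 0 lower, with a median of 0.32. The list's mean log2 level was 12.24, 12.55 and 11.35 in vehicle and 13.21, 12.67 and 12.59 after 10% LA, and vehicle replicate 3 read 13.20 in the series matrix. That array was the lowest of all in one table and about level with the highest in the other. Gatm, the first enzyme of creatine synthesis, differed by 1.31 and 0.64 in the 2 tables, the tetraspanin gene Tspan2 by 1.12 and 0.46, Plekhb1 by 1.24 and 0.43 and the connexin gene Gjc3 by 1.17 and 0.44. Astrocyte markers had 4 higher and 0 lower of 20 and 0 in the series matrix, with medians of 0.12 and 0.044, and 0 were higher and 1 lower once vehicle replicate 3 was left out. The 4 of the signal table were the water channel gene Aqp4 (0.86 and 0.47), the connexin gene Gja1 (0.69 and 0.33), the lipoprotein gene Clu (0.58 and 0.21) and Mlc1 (0.59 and 0.18). Of 21 endothelial markers 2 were higher and 2 lower. The VEGF receptor gene Flt1 read 9.98, 9.90 and 9.88 in vehicle and 9.45, 9.32 and 9.01 after 10% LA, with no overlap. Its log2 difference was -0.66 (SE 0.18), and -0.72 with the series matrix. The drug efflux gene Abcg2 had a positive difference without overlap (0.44 and 0.49). The lipid transporter gene Mfsd2a (1.11 and 0.77) and Itm2a (1.04 and 0.72) also had positive ones, and the junction gene Esam a negative one (-0.40 and -0.22).

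Markers of the choroid plexus epithelium, which secretes cerebrospinal fluid and adjoins the hippocampus, differed widely between arrays of a group. Of 25 markers on the array 22 passed the filter, all 22 with a difference above 0. Of these 7 were higher at an unadjusted p under 0.05 and 0 lower, against 0 in either direction with the series matrix and 1 higher without vehicle replicate 3. The medians were 1.22 and 0.12, and with 1 array left out the signal table's lay between 0.57 and 2.05. Ttr, the thyroxine carrier that these cells secrete, read 10.42, 19.13 and 11.63 in vehicle and 19.63, 16.06 and 18.75 after 10% LA, with 19.53 for vehicle replicate 3 in the series matrix. The second vehicle array lay between 10% LA arrays, and the groups overlapped. On the log2 scale the groups differed by 4.42 (SE 1.74), and 1.70 with the series matrix. The lysophospholipase D gene Enpp2 (2.39 and 0.61), the clotting factor gene F5 (1.77 and 0.45) and Cab39l (0.96 and 0.20) followed. The list's mean log2 level was 7.19, 9.77 and 7.32 in vehicle and 11.06, 8.13 and 9.56 after 10% LA, and 11.16 for vehicle replicate 3 in the series matrix. Summed on the linear scale, its members reached 19030 to 791159 in vehicle and 125442 to 1312390 after 10% LA, and vehicle replicate 3 reached 1295690 in the series matrix. In vehicle replicate 1, the lowest array, Otx2 and F5 read 4.23 and 4.79, below the filter level of 5.98. With this level as a covariate 1224 clusters had an unadjusted p under 0.05, and the differences of Arc, Dusp1, Dbp and Mt2 were -1.42, -1.24, 1.10 and 1.31. The medians of the immediate early, microglial, precursor and myelin lists were then -0.63, 0.32, 0.43 and 0.38.

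**Figure D3:**
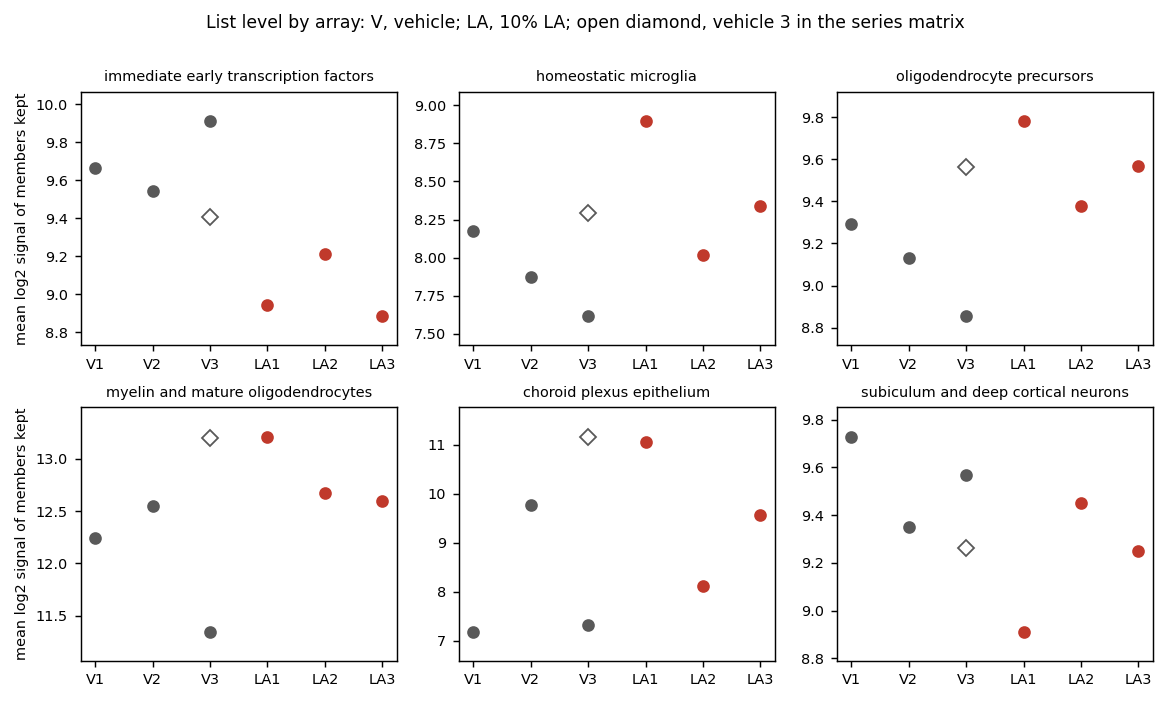
Each panel plots the mean log2 signal of a list's kept members in every array, vehicle (V1 to V3, grey) and 10% LA (LA1 to LA3, red), with an open diamond for vehicle replicate 3 in the series matrix. By this mean the immediate early list separates the groups in both tables, and the myelin and choroid plexus levels of vehicle replicate 3 differ between tables by over 1 log2 unit.

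Among neuron types, markers of the subiculum and deep cortex, which border the hippocampus, had differences of both signs, 13 below 0 and 7 above. Of 20 kept, 7 were lower and 2 higher, 5 and 0 with the series matrix, with medians of -0.35 and -0.18. Cbln2, a secreted synapse organizer, read 7.51, 6.92 and 7.91 in vehicle and 6.38, 6.62 and 6.62 after 10% LA. The groups did not overlap, and the log2 difference was -0.91 (SE 0.24), or -0.77 with the series matrix. Fn1, the fibronectin gene, differed by -0.77 and -0.84 without overlap in either table. The Wnt enhancer gene Rspo2 differed by -1.07 and -0.87 and the neurexin ligand gene Nxph3 by -0.86 and -0.64. The members on the higher side were Rorb, given above, and the transcription factor gene Etv1 (0.85 and 0.38). Nr4a2, described above, belongs to this list too, so the lists are not independent. The list's mean log2 level was 9.73, 9.35 and 9.57 in vehicle and 8.91, 9.45 and 9.25 after 10% LA, which overlapped. Markers of CA1 pyramidal cells had 1 of 11 lower, Mpped1 (-0.61 and -0.45), and those of dentate granule cells 2 of 15 higher, Rfx3 (0.72 and 0.31) and C1ql3 (0.83 and 0.51). Whether the dissected region differed between the arrays was not tested.

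LA is the ester of a terpene alcohol, and genes of ester hydrolysis, drug metabolism and sterol synthesis were examined for that reason. Of 37 esterase and xenobiotic genes on the array 27 passed the filter, 3 were higher and 1 lower, with medians of 0.23 and 0.12. Cyp4f15, a fatty acid hydroxylase, read 7.54, 6.90 and 7.17 in vehicle and 8.37, 7.60 and 8.03 after 10% LA. These values did not overlap, and the log2 difference was 0.80 (SE 0.25), or 0.79 with the series matrix. Cyp2j9 (0.45 and 0.31) did not overlap either, the glutathione transferase gene Gstm1 differed by 0.79 and 0.52, and the neuronal cholesterol hydroxylase gene Cyp46a1 by -0.71 and -0.28. Cholesterol genes had 3 higher and 2 lower of 22, with medians of 0.21 and 0.14. Hmgcs1, which makes the substrate of HMG-CoA reductase, read 14.29, 14.17 and 14.29 in vehicle and 15.34, 14.70 and 15.31 after 10% LA. The vehicle arrays were nearly equal and every 10% LA array lay above them, for a log2 difference of 0.87 (SE 0.24), or 0.83 with the series matrix. The later enzymes did not share one direction: Nsdhl (0.60 and 0.43) and Sqle (0.56 and 0.18) had positive differences, and Lss (-0.54 and -0.42) and Pmvk (-0.52 and -0.47) negative ones without overlap in either table.

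General metabolic lists had medians within 0.25 log2 of 0 in both tables. Nuclear-encoded respiratory chain genes had 1 lower and 0 higher of 43, Ndufb10 (-0.89 and -0.42), with a median of -0.14, and Ndufa8 (-0.29 and -0.30) did not overlap in either table. Ribosomal protein genes had 2 higher and 3 lower of 43, with a median of -0.023. The 2 tables gave 0.88 and 0.44 for Rpl18 and -0.87 and -0.42 for Rps14, and Rpl28, Rplp1 and Rps23 had positive differences of at most 0.35 without overlap in either table. Glycolytic and hypoxia genes had 4 of 27 lower and 0 higher, with medians of -0.17 and -0.12. Besides Ddit4 these were the growth factor gene Vegfa (-0.50 and -0.49), the glycolytic activator gene Pfkfb3 (-0.51 and -0.40) and Tpi1 (-0.40 and -0.31), none of which overlapped in either table. The glycolytic and hypoxia list also had 4 lower and 0 higher, and a median of -0.16, without vehicle replicate 3. NRF2 targets had 1 of 17 higher, the glutathione synthesis gene Gclm (0.54 and 0.37). TRP channel genes, some of whose products respond to terpenes, had 0 of 14 in either direction by limma at an unadjusted p under 0.05 in both tables.

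Chromatin and interferon genes held a few members that stood apart. Tet2, which oxidises 5-methylcytosine, read 9.77, 9.01 and 8.29 in vehicle and 10.18, 10.23 and 10.56 after 10% LA, with 9.78 for vehicle replicate 3 in the series matrix. The groups did not overlap, and the vehicle arrays spread widely, with the third the lowest. Its log2 difference was 1.30 (SE 0.31), and 0.79 with the series matrix. Dnmt3a, the de novo methyltransferase gene, differed by -0.45 and -0.42 without overlap and Tet3 by -0.39 and -0.19. Of 14 genes of this kind 1 was higher and 3 were lower. Of 30 MHC class I and interferon genes 13 passed the filter, 2 were higher and 3 lower. The interferon-induced genes Ifit3 (0.89 and 0.72) and Xaf1 (0.84 and 0.54) had positive differences, and the genes of the factors that induce them, Stat2 (-0.46 and -0.43) and Irf9 (-0.67 and -0.48), negative ones. None of these 4 overlapped between the groups in either table.

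The rule that named genes by size in both tables took 12 higher and 12 lower of the 129 and 183 that met its criteria. The 12 higher ones began with Cdh19, a cadherin of the glial and Schwann cell lineages. It read 7.92, 7.11 and 7.35 in vehicle and 8.73, 8.76 and 8.69 after 10% LA, with 7.39 for vehicle replicate 3 in the series matrix. The 10% LA arrays were nearly equal and all above vehicle. The log2 difference was 1.27 (SE 0.21) with a limma adjusted p of 0.278, and 1.27 with the series matrix. Napepld, which releases the anandamide family of lipid mediators from membranes, read 8.86, 8.78 and 8.45 in vehicle and 9.83, 9.37 and 10.61 after 10% LA. In the series matrix vehicle replicate 3 read 9.33, just under the second 10% LA array. This gave a log2 difference of 1.24 (SE 0.36), and 0.93 with the series matrix. Ehd3, an endosomal recycling gene, differed by 1.35 and 0.95 in the 2 tables, the protocadherin gene Pcdh11x by 0.91 and 0.86 and the glutaminyl cyclase gene Qpct by 0.84 and 0.87. Nvl, a ribosome assembly ATPase, differed by 1.10 and 0.86, Ankrd49 by 1.03 and 0.84 and Tceanc by 0.94 and 1.04. The others of the 12 were Mt2, Dbp, Dbpht2 and Hmgcs1.

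The 12 lower ones were Dusp1, Arc, Shank3, Nr4a1, Nr4a2, Junb, Cyr61, Shank1 and Klf10, given above, and 3 more. Cited2 encodes a CBP/p300-binding brake on hypoxia signalling, and read 12.04, 11.88 and 12.34 in vehicle and 11.06, 10.99 and 11.38 after 10% LA. All 10% LA arrays lay below all vehicle arrays, for a log2 difference of -0.94 (SE 0.22), or -0.83 with the series matrix. Smpd4, a neutral sphingomyelinase gene, differed by -1.07 and -0.86 in the 2 tables, and Tm6sf2, a lipid-loading gene of lipoprotein secretion in liver, by -1.11 and -1.24. All 24 kept their direction under every alternative run. Their choice for the same direction and no overlap in both tables largely fixed this beforehand, so it is no separate evidence.

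The 1% LA arrays allow a comparison of the doses. Both doses were set against the same vehicle arrays, so their differences from vehicle share those arrays and are given side by side only. Arc differed from vehicle by -1.46 at 1% LA and -1.62 at 10%, Dusp1 by -1.52 and -1.79, and Junb by -1.29 and -1.29. For Dbp the values were 0.94 and 1.11, for Mt2 0.82 and 1.42, and for Cdh19 0.69 and 1.27. The direct difference of 10% minus 1% LA uses no vehicle array. Its SE comes from the fit over all arrays of the series, so the spread of the vehicle arrays enters its p-values. This direct test called 0 clusters at an adjusted p under 0.05 by limma and 271 (2.03%) at an unadjusted one. The smallest adjusted p was 0.999861. For Arc this direct difference was -0.16 (SE 0.23), for Nr4a1 -0.037 (SE 0.28) and for Dbp 0.17 (SE 0.17), each no farther from 0 than about 1 SE. For Qpct it was 0.76 (SE 0.17) and for Pcdh11x 0.72 (SE 0.23), the widest of the 24 genes relative to their SE. Of the 15 immediate early factors 1 had an unadjusted p under 0.05 in this test, Jun, at -0.60 (SE 0.23). For the others a dose effect was not detectable with 3 arrays a group, which does not show that the doses act alike.

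**Figure D4:**
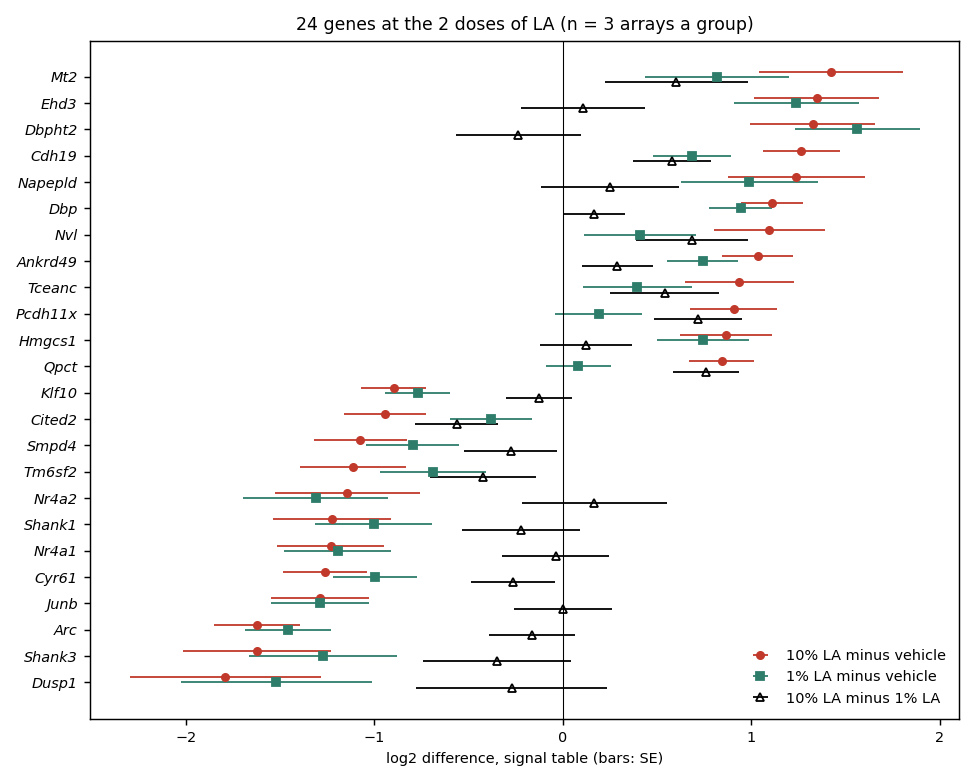
For the 24 genes named by rule, points give the log2 difference of 10% LA minus vehicle (red), 1% LA minus vehicle (green) and 10% minus 1% LA (open triangles), with bars of 1 SE, from the signal table. Junb, Nr4a1 and Dbp lie at similar places for both doses, and Qpct and Pcdh11x are farther from 0 at 10% LA than at 1%.

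Most of the 52 gene lists lay near 0. The median was within 0.25 log2 of 0 in both tables for 40 lists. In 2 it lay beyond that in the same direction in both tables, the immediate early transcription factors below 0 and the oligodendrocyte precursors above. In 8 lists it did so in the signal table alone, among them the myelin, choroid plexus and microglial lists, and in 2 in the series matrix alone.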

How the data were processed

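Hippocampal RNA was measured on 9 mouse whole-transcript arrays, of which the 3 of vehicle and the 3 of 10% LA are compared. The deposited tables hold log2 values that the authors normalized by signal space transformation RMA, per the series' design text, which names Transcriptome Analysis Console 4.0.2 and limma. No source used here gives the genome build. Values were used as deposited. Of 22206 clusters 21367 carried 1 gene symbol, 836 several and 3 none, and 27 symbols turned into dates by a spreadsheet were restored from their descriptions. Clusters with a mean log2 signal over the 9 arrays above the 40th percentile (5.98) were kept, which left 13323. The series matrix was reduced to the same clusters.

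Each table was fitted with limma 3.58.1 under R 4.3.3, 1 mean for each group over the 9 arrays, and its moderated test was taken with Benjamini-Hochberg adjustment over the clusters kept, after the procedure had been tested on simulated data. The median SE of a log2 difference was 0.21, and 3 arrays a group limit the precision. The deposited fold and p columns were not used. Genes were named as follows: the 12 higher and 12 lower with an unadjusted p under 0.05 and no overlap in both tables, ranked by the smaller difference; up to 4 members of a list with the smallest p and those without overlap in both tables; and Arc, Dbp, Ttr, Mt2 and 5 hippocampal markers. Predicted genes, receptors of smell, taste or pheromones, and histone genes were left out of the first. Some members that these rules take are not reported here. Other genes were named after their values were seen: Egr1, Egr2, Egr3, Ier5, Gadd45g, Etv1, Lbp, Serpina3n, Il1r1, Ptgs2, and members listed as too dim or with an unadjusted p above 0.05. The comparison, the 52 gene lists and the rules were chosen with earlier results of these data known. Alternatives were the series matrix, no filter, only the 6 arrays, quantile normalization, median centring, an intensity trend, a replicate block, the choroid plexus level as a covariate, and leaving out each array.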

Additional observations from a re-analysis of the deposited data

How the results depend on the processing

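With 3 arrays a group, single arrays decide the counts. The adjusted p count was 0 in both tables and in every alternative except without vehicle replicate 1 (533 clusters, 299 higher and 234 lower, 14 of the 24 genes named by rule among them) and without vehicle replicate 2 (3 clusters, Cyr61, Arc and Ttr), so the leave-one-out range was 0 to 533. Clusters at an unadjusted p under 0.05 numbered 1853, 760 with the series matrix, 1224 with a covariate for the choroid plexus level, and 912 to 3307 with an array left out. By the submitters' criteria there were 146, 24 with the series matrix, and 78 to 516 with an array left out. Clusters without overlap numbered 1948, and 2661 to 5562 with an array left out, when fewer arrays must separate. The cause of the other shifts was not tested. The immediate early median moved from -0.74 to -0.44 with the series matrix, and the myelin median from 0.70 to 0.11 with the series matrix. With an array left out the effector median ranged from -0.46 to -0.18 and the microglial median from 0.19 to 0.76. The replicate numbers are not stated to pair the samples. Correlations of deviations were 0.105, -0.035 and -0.133 in the signal table and -0.172, 0.296 and 0.055 in the series matrix. With 3 arrays a group these cannot tell whether the numbers mark a shared batch. With the replicate block 0 clusters passed the adjusted p and 1837 an unadjusted one. No gene given with a value for its log2 difference of 10% LA from vehicle turned its sign under the alternatives run. Nr4a3 and Jund, named without values, did with the series matrix. Most genes given with values were chosen for a small p or a lack of overlap, so their steady sign was largely fixed by that choice.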
